A study of Branchiostoma lanceolatum with 24 samples.

Results

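In the cephalochordate Branchiostoma lanceolatum, the European amphioxus, 41 of 96094 transcriptome contigs had almost no reads in DMSO embryos and were clearly present in whole embryos kept in SU5402 from 5 hours post fertilization (hpf). Contigs are stretches of transcript put together from reads. A gene can be split over several of them and the identifiers carry no gene name, so the 41 are not a count of genes. They were chosen on CPM, the reads of a contig per 1000000 reads of its library. The mean DMSO level was at most 0.3 CPM in each of 6 groups, every SU5402 library after 6 h and 9 h of early treatment held at least 3 CPM, and the mean SU5402 level was under 1 CPM in each of 3 late groups. These values chose the contigs, so the low DMSO levels, the high early levels at 6 h and 9 h and the low late levels are a description and support nothing. The SU5402 libraries of early 3 h are the treated libraries that the rule did not use.

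Controls were embryos in filtered sea water with 0.1% DMSO, and treated embryos received 50 µM SU5402. In the early series, exposure started at 5 hpf and lasted 3, 6 or 9 h, until 8, 11 or 14 hpf. In the late series it started at 15.5 hpf and lasted as long, until 18.5, 21.5 or 24.5 hpf. There were 12 groups of 2 libraries, each made from a mix of embryos, with 10866511 to 39988564 reads a library. Whether paired libraries stem from different spawnings or dishes is not in the labels, and the spread behind each p-value may be technical. The 8 libraries of 6 h had fewer reads (10866511 to 18924324) than the other 16 (27687922 to 39988564) and, per the labels' protocols, 15 rather than 12 PCR cycles. Both differences go with exposure time and are shared by the DMSO and SU5402 embryos of each comparison. As these are whole embryos, more cells that carry a transcript and more transcript per cell cannot be told apart.

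Fibroblast growth factors (FGFs) are secreted ligands that bind receptor tyrosine kinases on neighbouring cells. The activated receptor signals through Ras and the ERK kinase cascade to transcription factors of the ETS family. SU5402 is a small molecule that occupies the ATP site of the FGF receptor kinase, and it can also inhibit other receptor tyrosine kinases. In amphioxus, FGF signalling is known for its part in forming the anterior somites, the first muscle-forming blocks of the trunk. Which genes the 41 contigs belong to is not known here: 0 identifiers matched the RefSeq gene table of the species, so no gene role is given and no FGF, stress or detoxification gene list could be counted among them.

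In DMSO embryos the 41 contigs were close to undetected. Over all 12 DMSO libraries together they held between 1 and 52 reads each, with a median of 17, and no contig had more than 13 reads in any DMSO library. Their summed level was 4.69 ± 0.504 CPM at 8 hpf, 2.96 ± 0.363 CPM at 11 hpf and 2.36 ± 0.161 CPM at 14 hpf (SD, n = 2 libraries). In the late series it was 1.28 ± 0.062 CPM at 18.5 hpf, 1.36 ± 0.283 CPM at 21.5 hpf and 1.44 ± 0.139 CPM at 24.5 hpf. The few control reads were thus most frequent in the youngest embryos. There 27 of the 41 contigs had their highest early DMSO mean, a count that rests on few reads and was not set against a share of all contigs. In the late DMSO libraries 9 contigs had no read at all. A level of 0.3 CPM stands for 3.26 reads in the shallowest library and for 12 reads in the deepest, and differences among DMSO levels of single contigs were not tested. ContigAmph34709, which had the highest mean of the 41 in any DMSO group, held 6 and 12 reads in the DMSO libraries of early 3 h, 0 and 1 in those of early 9 h and none in the 6 late ones.

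In early SU5402 embryos the same contigs summed to 174 ± 15 CPM after 3 h, 308 ± 27.9 CPM after 6 h and 231 ± 50.4 CPM after 9 h (SD, n = 2 libraries). At 3 h the libraries stood at 185 and 164 CPM, at 6 h at 328 and 288 CPM, and at 9 h at 267 and 195 CPM. All early SU5402 libraries lay far above all DMSO libraries. The median contig had a mean level of 2.39 CPM at 3 h, 5.59 CPM at 6 h and 5.21 CPM at 9 h. In the SU5402 libraries of early 6 h, 84.1% and 82.2% of all contigs in the table lay below the median of these 41.

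**Figure D1:**
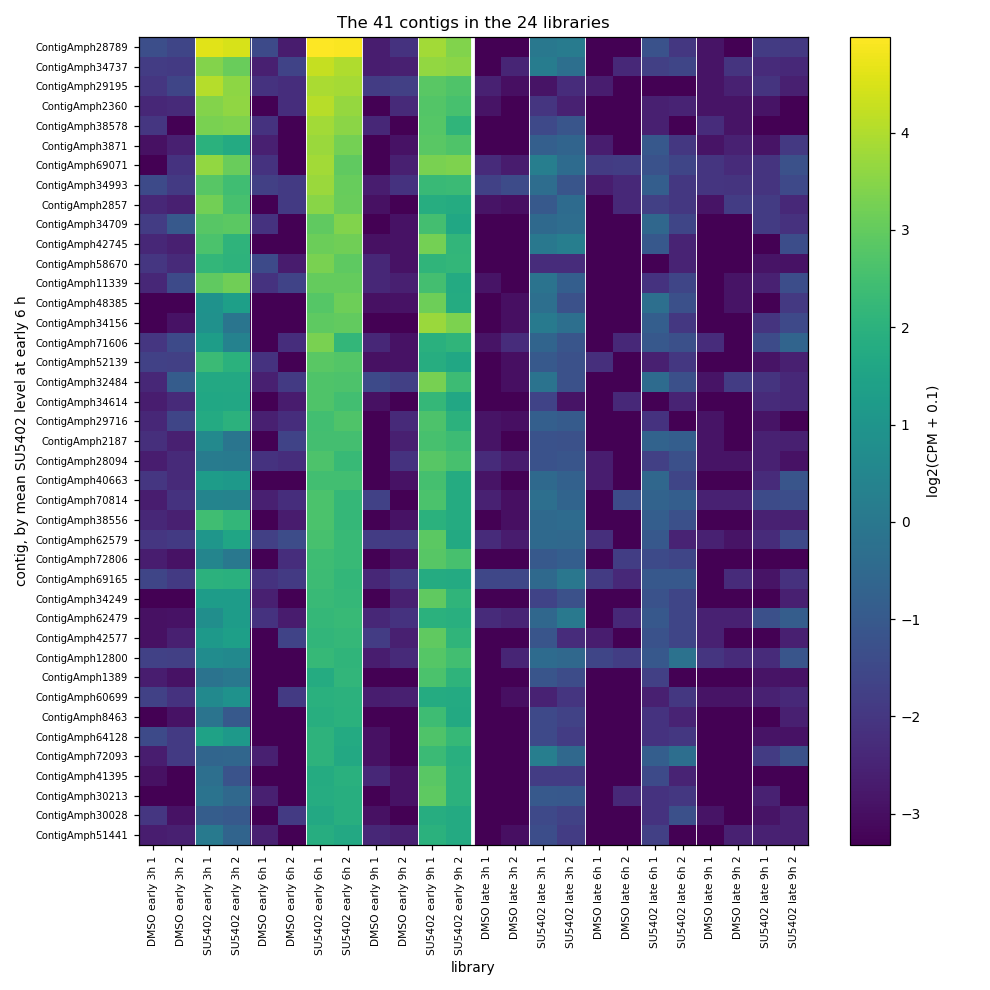
Heat map of the 41 contigs (rows, ordered by mean SU5402 level at early 6 h) in the 24 libraries (columns, early series left of the thick line); colour is log2(CPM + 0.1). The 6 early SU5402 libraries stand out against all DMSO libraries, and the late SU5402 libraries of 3 h are faintly brighter than their DMSO libraries.

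**Figure D2:**
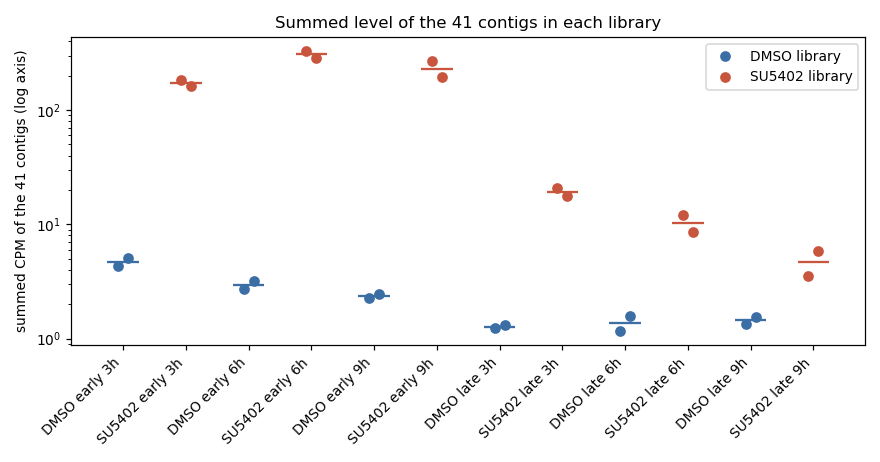
Summed CPM of the 41 contigs in each library on a log axis, by group; points are libraries and bars the mean of 2 libraries. Early SU5402 libraries hold 164 to 328 CPM and late SU5402 libraries 3.51 to 20.7 CPM, while DMSO libraries hold 1.16 to 5.05 CPM.

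After 3 h of early treatment, the time that did not enter the rule on the treated side, 40 of the 41 contigs were called risen by edgeR's quasi-likelihood test (Benjamini-Hochberg adjusted p under 0.05 over 77193 contigs, fit of the 12 early libraries). Of all contigs tested, 8.34% were called risen in this comparison. The rule did use the DMSO mean of 3 h as a ceiling, and among the 8117 contigs tested that met the DMSO ceiling in all groups, 34.7% were called risen. Such contigs pass the filter on low counts mainly where SU5402 raised them, so that share is itself high by construction. Both SU5402 libraries of 3 h lay above both DMSO libraries for 41 of 41 contigs, against 31.5% of all contigs with a read and 53% of those within the DMSO ceiling. They also lay above all 12 DMSO libraries for 41 of 41. The DMSO ceiling favours that count, and it was not set against a share of all contigs. At this time 30 contigs had at least 1 CPM in both SU5402 libraries and 19 had at least 3 CPM. The ratio of SU5402 to DMSO reads had a median of 28.7 over the 41 contigs and ran from 4.58 to 170, where the 3 contigs with no DMSO read at 3 h were set at a floor of 3 counts over the group.

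ContigAmph29195 and ContigAmph28789 had both the smallest p at 3 h and the highest SU5402 levels at that time. ContigAmph29195 had 0.147 and 0.234 CPM in the DMSO libraries of early 3 h and 16.5 and 11.7 CPM in the SU5402 libraries. The log2 fold change was 6.10 (SE 0.31, edgeR adjusted p = 1.8e-05), and 1006 reads stood against 12. ContigAmph28789 had 0.295 and 0.234 CPM with DMSO and 24.2 and 22.4 CPM with SU5402, a log2 fold change of 6.33 (SE 0.36, edgeR adjusted p = 2.7e-05). In both contigs the treated libraries were far from the DMSO libraries. They were close together in ContigAmph28789 but differed in ContigAmph29195 (16.5 against 11.7 CPM). After 3 h of SU5402, ContigAmph29195 had reached 95.7% and ContigAmph28789 75.4% of the mean level at 6 h.

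The contig that missed the threshold was ContigAmph30028, named after its values were seen. It had 0.147 and 0.0334 CPM in the DMSO libraries of early 3 h and 0.45 and 0.404 CPM in the SU5402 libraries. The groups did not overlap, the log2 fold change was 2.05 (SE 0.69, edgeR adjusted p = 0.068), and the reads were 30 against 6, 4.58 times as many per read sequenced (exact 95% interval 1.88 to 13.5, counting error only). Its level at 3 h was 12.7% of that at 6 h, the lowest share of the 41 contigs. The other contigs had shares of up to 103%, with a median of 48.3% over all 41. The share was under 25% in 13 contigs and over 75% in 10.

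**Figure D3:**
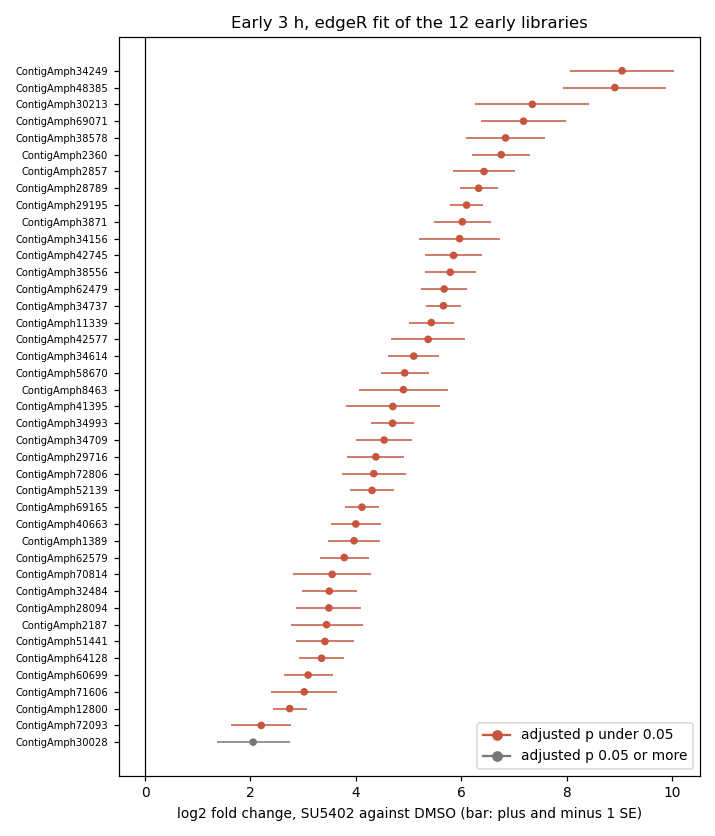
Log2 fold change of SU5402 against DMSO after 3 h of early treatment for each of the 41 contigs (points) with 1 SE on each side (bars), from the edgeR fit of the 12 early libraries; red marks an adjusted p under 0.05. All points lie above 0, from 2.05 to 9.05, and ContigAmph30028 is the grey one; for the 3 contigs with no DMSO read at 3 h the fitted value depends on the prior count and is no bound.

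After 6 h and 9 h every one of the 41 contigs was called risen in the same fit, where 13.9% and 13.1% of all contigs tested were; the rule chose the contigs on these libraries, so nothing is read from the counts. Levels were moderate. The highest mean at 6 h was 30.9 CPM and the highest at 9 h 12.3 CPM, both in ContigAmph28789. This contig stood at 31.5 and 30.2 CPM in the SU5402 libraries of 6 h against 0.263 and 0.0554 CPM with DMSO, a ratio of 206 (exact 95% interval 87.8 to 635, counting error only). ContigAmph34737, second at both times, stood at 18.8 and 16 CPM at 6 h and 12.4 and 11.5 CPM at 9 h, and its DMSO libraries at those times held 1 to 4 reads each. At 3 h it had been at 10.7 and 8.38 CPM (log2 fold change 5.66, SE 0.33, edgeR adjusted p = 2.8e-05). Both contigs thus had their highest level at 6 h.

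The 41 contigs differed in how their level moved on. Both SU5402 libraries of 6 h lay above both of 3 h for 36 of the 41, where 38.9% of all contigs with a read did so, and the minimum of 3 CPM at 6 h favours this direction. In SU5402 embryos 1 contig had its highest early mean at 3 h, 25 at 6 h and 15 at 9 h. The minimum of 3 CPM, set at 6 h and 9 h only, disfavours a peak at 3 h. These counts were not set against shares of all contigs. Both libraries of 9 h lay below both of 6 h for 18 contigs and above them for 6, where 30.6% and 25.7% of all contigs with a read did. The 26 contigs with a higher mean at 6 h than at 9 h went from a median of 4.29 CPM at 3 h to 7.88 CPM at 6 h and 4.79 CPM at 9 h. The other 15 went from 0.988 to 3.84 and then 5.7 CPM. At 3 h the first group had already reached a median of 57.5% of its level at 6 h and the second 22%. The contigs were split here by their own values at 6 h and 9 h, so these medians describe them and were not tested. Across the 41 contigs, log2 mean levels at 3 h and 6 h had a Pearson correlation of 0.864 and those at 3 h and 9 h 0.308, as a description over contigs that share libraries and may share genes.

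**Figure D4:**
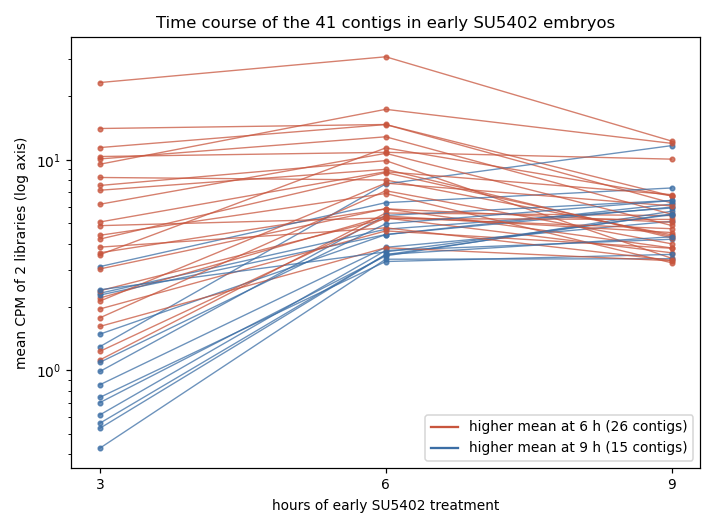
Mean CPM of 2 SU5402 libraries (log axis) for each of the 41 contigs after 3, 6 and 9 h of early treatment; red lines are the 26 contigs with the higher mean at 6 h and blue lines the 15 with the higher mean at 9 h. Most blue lines start lower at 3 h, with a median of 0.988 CPM against 4.29 CPM for the red lines.

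Among the contigs that declined from 6 h to 9 h, ContigAmph2857 and ContigAmph28789 had the smallest ratios of the means, 0.344 and 0.398. ContigAmph2857 stood at 9.25 and 5.86 CPM at 3 h, 11.4 and 8.46 CPM at 6 h, and 3.5 and 3.32 CPM at 9 h in SU5402 embryos. Its libraries of 9 h both lay below those of 6 h and of 3 h. At the other end, ContigAmph30213 and ContigAmph41395 had the largest ratios, 1.63 and 1.56. ContigAmph30213 stood at 0.8 and 0.606 CPM at 3 h, 3.43 and 3.56 CPM at 6 h, and 7.42 and 3.98 CPM at 9 h. ContigAmph41395 stood at 0.725 and 0.337, then 3.33 and 3.76, then 7.09 and 3.98 CPM. In both, the libraries of 9 h lay above those of 6 h, by little for replicate 2. DMSO libraries held 3 reads of ContigAmph30213 and 5 of ContigAmph41395 in all.

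Whether the SU5402 effect itself differed between 9 h and 6 h could be tested only weakly, since the DMSO side holds so few reads. In edgeR's quasi-likelihood test of that difference, 0 of the 41 contigs were past the adjusted threshold in either direction, where 0.969% of all contigs tested had a larger and 0.426% a smaller effect at 9 h. Among the 8117 contigs tested that met the DMSO ceiling, 0% were called in either direction, so the count of 0 says nothing particular about the 41. At an unadjusted p under 0.05 the edgeR counts were 0 larger and 1 smaller, where 6.51% and 6% of all contigs tested were. DESeq2 called 0 of the 35 contigs to which it gave an adjusted p. Of all 34394 contigs with an adjusted p it called 1733 larger and 782 smaller. The median SE of the difference over the 41 contigs was 1.26 on the log2 scale. Single values ran from 0.032 (ContigAmph3871) to 885 (ContigAmph34156), so the SE is no usable measure of precision here. The 0 calls do not show that the effect was equal at both times.

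A direct comparison of the SU5402 groups of 9 h and 6 h, chosen after seeing the data, called 6 contigs lower at 9 h and 0 higher by edgeR, where 8.14% of all contigs tested were lower and 9.79% higher. Within the DMSO ceiling 7.29% were lower and 1.13% higher, so contigs this low in DMSO were seldom called higher at 9 h. At an unadjusted p under 0.05 the edgeR counts were 12 lower and 0 higher, where 16.7% of all contigs tested were lower and 15.5% higher. DESeq2 called 8 lower and 0 higher, beside 5173 lower and 7265 higher of all 62134 contigs it tested. ContigAmph28789 was lower by a log2 fold change of -1.35 (SE 0.26, edgeR adjusted p = 0.0059), ContigAmph29195 by -1.14 (SE 0.23, edgeR adjusted p = 0.0067) and ContigAmph2857 by -1.56 (SE 0.40, edgeR adjusted p = 0.023). The rule used these libraries, with the same minimum at both times, and the count is a description. The count of 6 moved with the fit, and the fold changes moved with single libraries. The median log2 fold change of the 41 was -0.226, beside -0.124 over all contigs tested. Without SU5402 early 9 h replicate 2 it was 0.0378 (all contigs -0.0795). It was -0.212 (all contigs -0.0855) without SU5402 early 6 h replicate 1. Without SU5402 early 9 h replicate 1 it was -0.569 (all contigs -0.199). The count was 3 with no filter on low counts, where 3981 of all 95422 contigs tested were lower. It was 14 with a replicate block in which the numbers of SU5402 early 9 h were crossed, a fit chosen after seeing the data. That block called 14507 of all 77193 contigs lower, against 6287 in the main fit, so calls rose over all contigs too. Replicate 2 of SU5402 early 9 h was the lower library for 37 of the 41 contigs, with a median ratio of replicate 1 to replicate 2 of 1.32. Over the 24273 contigs with a mean of at least 3 CPM in that group, 49.2% were higher in replicate 1 and the median ratio was 0.997. The part of this library difference in the decline was not tested, and depth and PCR cycles cannot be told apart from exposure time in it.

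Under late treatment the contigs were low but above DMSO at 3 h. After 3 h of late SU5402 their summed level was 20.7 and 17.8 CPM, against 1.23 and 1.32 CPM with DMSO, and both SU5402 libraries lay above both DMSO libraries for 40 of 41 contigs, where 33.9% of all contigs with a read did and 47% of those within the DMSO ceiling. After 6 h the sums were 12.1 and 8.61 CPM against 1.16 and 1.56 CPM, with 32 of 41 contigs and shares of 33% and 37.7%. After 9 h they were 3.51 and 5.9 CPM against 1.34 and 1.54 CPM, with 18 of 41 and shares of 31.9% and 30.4%. The contigs were thus far lower under late than under early SU5402, but at late 3 h they were not at the DMSO level. The rule capped the late SU5402 mean at 1 CPM and the DMSO mean at 0.3 CPM, so these values are given with no weight as a test.

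In the fit of the 12 late libraries 25 of the 41 contigs passed the filter on low counts and 16 were not tested. Of the 25, 24 were called risen at 3 h, 9 at 6 h and 6 at 9 h, and 0 were called fallen at any of these times. Of all contigs tested, 16.4%, 11% and 11.7% were called risen and 14%, 10.6% and 11.2% fallen. A contig passed that filter mainly through the SU5402 libraries, and the counts support nothing. The median contig stood at 0.449 CPM at 3 h, 0.241 CPM at 6 h and 0.0822 CPM at 9 h of late SU5402. Both libraries of 3 h lay above both of 9 h for 37 of 41 contigs, where 27.7% of all contigs with a read did so. The level under late SU5402 was thus highest at the first time and lowest at the last, whereas early SU5402 gave its highest sum at 6 h.

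ContigAmph42745 and ContigAmph28789 had the highest late levels. ContigAmph42745 held 25 and 30 reads, or 0.903 and 1.07 CPM, in the SU5402 libraries of late 3 h and no read in any of the 6 late DMSO libraries. At 3 h it was at least 21.8-fold higher on a floor of 3 counts over the DMSO group. That bound covers counting error of the DMSO reads only and takes the SU5402 reads as counted. In the early series it had stood at 8.56 and 9 CPM after 6 h and 9.39 and 4.28 CPM after 9 h of SU5402. ContigAmph28789 held 25 and 28 reads with late SU5402 at 3 h against 0 with DMSO, at least 21-fold higher on the same floor. By 6 h it was down to 5 and 2 reads and at 9 h it had 5 in each library. The most abundant of the 41 contigs in the early series was thus among the highest in the late series too. ContigAmph29195 was not: it had 1 and 3 reads with late SU5402 at 3 h against 2 and 1 with DMSO, a ratio of 1.59 (exact 95% interval 0.268 to 10.8), and no difference was detectable at this depth.

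**Figure D5:**
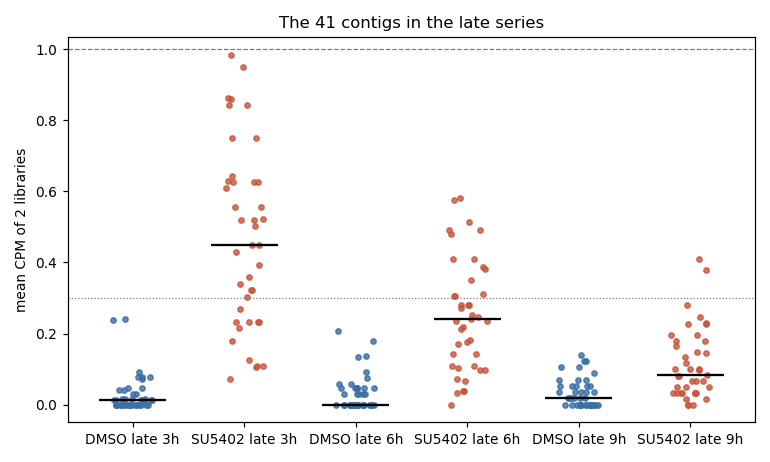
Mean CPM of 2 libraries for each of the 41 contigs in the late series, by group; bars are medians, the dashed line marks the rule's limit of 1 CPM for SU5402 and the dotted line its limit of 0.3 CPM for DMSO. The SU5402 medians are 0.449, 0.241 and 0.0822 CPM at 3, 6 and 9 h.

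Contigs with close values lay on both sides of each limit. ContigAmph34709 lay just inside the DMSO ceiling, with a highest DMSO mean of 0.289 CPM at early 3 h, and ContigAmph54240 just outside it with 0.303 CPM. ContigAmph34709 was also nearest to the minimum of 3 CPM, with 3.02 CPM in SU5402 early 9 h replicate 2, where ContigAmph9829 had 2.98 CPM. ContigAmph42745 had the late mean nearest to the limit, 0.985 CPM, and ContigAmph69072, at 1.02 CPM, was left out. At early 3 h of SU5402, which the rule did not use, ContigAmph54240 had a mean of 7.49 CPM, beside 7.17 CPM for ContigAmph34709. ContigAmph69072 had 5.28 CPM, beside 5.07 CPM for ContigAmph42745. ContigAmph9829 was lower, at 1.73 CPM against the 7.17 CPM of ContigAmph34709.

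A larger group of 87 contigs met the DMSO ceiling and the early minimum but passed 1 CPM in at least 1 late SU5402 group. Their median level in early SU5402 was 1.72 CPM at 3 h, 6.53 CPM at 6 h and 8.26 CPM at 9 h, beside 2.39, 5.59 and 5.21 CPM for the 41. The mean at 9 h was above that at 6 h in 63.2% of the 87 contigs and in 36.6% of the 41. The level at 3 h was a median of 24.8% of that at 6 h in the 87 and 48.3% in the 41. These differences between lists of contigs were not tested, since contigs are not replicates of a condition. A further 360 contigs met the early minimum and the late limit but had more than 0.3 CPM in at least 1 DMSO group.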

How the data were processed

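The deposited table holds the authors' raw read counts, whole numbers, for 96094 contigs in 24 libraries, and 0 columns stayed unused. The submitters' processing notes name BWA 0.6.1; how contigs were assembled and reads counted or filtered is not given in the sources used. The kit does not mark strand per the labels' protocols, and near-identical copies can share reads. CPM were computed from the counts and library totals. The 41 contigs, the lists and the tests were chosen with earlier results of these data known.

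Counts were fitted with edgeR 4.0.16 in R 4.3.3 (filterByExpr, TMM factors, 1 coefficient a group, glmQLFTest, two-sided, Benjamini-Hochberg over all contigs tested). Each series of 12 libraries was fitted alone, with 6 residual degrees of freedom, because replicates spread more in the early series (common biological coefficient of variation 27.2%) than in the late (6.83%). The early fit tested 77193 contigs and the late 73087. The SE is the log2 fold change divided by the square root of F. With few reads in a group it can be far too small or far too large, and the fold change then depends on the prior count. Ratios of reads carry exact 95% intervals, or a floor of 3 counts over the group where DMSO had none. Reads carry no molecular identifiers, so intervals cover counting error only, and floors cover that of the DMSO reads only. DESeq2 1.42.0 was an alternative. The scripts were tested on simulated data.

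Named contigs are those with the 2 highest SU5402 means at each early time and in the late series, the 2 smallest p at early 3 h, the 2 largest and 2 smallest ratios of 9 h to 6 h, and those nearest each limit. No replicate pair agreed within sampling noise (chi-square per degree of freedom 1.39 or more). Groups of 2 allow no permutation p under 0.333.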

Additional observations from a re-analysis of the deposited data

How the results depend on the processing

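The number of contigs moved with the limits of the rule: 24 and 66 with a DMSO ceiling of 0.15 and 0.6 CPM, 202 and 6 with an early minimum of 1.5 and 6 CPM, 21, 81 and 128 with a late limit of 0.5 CPM, of 2 CPM and none, and 155 with the early minimum at 6 h only, the last chosen after seeing the data. With TMM or DESeq2 scaling the rule gave 41 and 46 contigs, sharing 36 and 38 with the 41. Applied to 1 library a group it gave 55 contigs without replicate 1 and 83 without replicate 2, each sharing 38. At early 3 h there were 13 alternatives, and 39 to 41 of the 41 contigs were risen in those that kept both libraries of each group. Among all contigs tested, 4356 of 63087 were risen with only the libraries compared. With TMM factors from abundant contigs 10605 of 77193 were, and the other counts of these fits lay between. In the alternatives that left out a library, the median log2 fold change of the 41 ran from 4.48 to 5.15. ContigAmph30028 was called in 2 of the 13, with adjusted p from 0.027 to 0.29. All 41 stayed above 0 in each alternative at 3 h. Library totals moved the median of all contigs' log2 fold changes to 0.10, 0.18 and 0.13 at early 3, 6 and 9 h, and TMM factors from abundant contigs to 0.34, 0.31 and 0.11. The difference of effects between 9 h and 6 h had 0 calls among the 41 in each alternative. The direct comparison of 9 h with 6 h gave 3 lower contigs without a filter, beside 3981 of all 95422 tested. With a library left out, its median log2 fold change over the 41 ran from -0.569 to 0.0378. The fit of all 24 libraries called 36, 6 and 4 of 41 contigs risen at late 3, 6 and 9 h. Of all 87512 contigs tested in that fit, 7509, 3847 and 3216 were called risen at these times.

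The replicate number in the labels does not say what it marks. Replicate differences of the early groups correlated across contigs at 0.51 to 0.745 among 5 groups and at -0.695 to -0.54 between these and SU5402 early 9 h. In the late series no SU5402 and DMSO pair correlated over 0.1. With the replicate block, 40 of the 41 contigs were risen at early 3 h and 8 were lower at 9 h than at 6 h. Of all 77193 contigs tested, 6988 were risen and 7325 lower in these comparisons. With the numbers of SU5402 early 9 h crossed, chosen after seeing the data, the block gave 41 and 14. It then called 12559 of all contigs tested risen and 14507 lower.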
